A study of Mus musculus with 12 samples.

Results

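Genes for collagen chains are described here in 2 mouse fibroblast lines treated with SHHN, the signalling amino-terminal piece of the Sonic hedgehog protein, or with vehicle. The genes are the 44 rows, of 24346 genes in the deposited table, whose symbol is Col, a number, the letter a and a number. NIH-3T3 is an established line from embryos of the NIH/Swiss strain, and MLg an established line from newborn ddY lung. The 4 groups were NIH-3T3 SHHN, NIH-3T3 control, MLg SHHN and MLg control, with 3 libraries each. SHHN was given at 1 µg/ml and vehicle was given to controls, both for 48 h in DMEM with 0.5% fetal bovine serum. Before treatment MLg was grown in fetal bovine serum and NIH-3T3 in calf serum. Strain, tissue, age and serum thus differ together with the line and cannot be told apart from it. The labels do not say whether libraries of a group came from separate cultures, so p-values measure the spread between these libraries, which may be technical.

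Collagen chains wind round each other into a helix, are trimmed and crosslinked outside the cell, and make up most of the protein of connective tissue. Fibrillar chains (types I, III and V in most soft tissue) form the load-bearing fibrils, and fibril-associated chains sit on their surface. Type IV chains form the sheet of basement membranes, and type VI chains form beaded filaments around cells. Fibroblasts are the main source of fibrillar collagen in lung and skin. Hedgehog ligand is known to act on mesenchymal cells through Ptch1 and the Gli factors.

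Levels are in FPKM (fragments corrected for transcript length and library depth), so levels of different genes can be set side by side. Of the 44 collagen genes, 26 reached 0.5 FPKM in 3 or more of the 12 libraries and were tested, as were 12379 of the 24346 genes. Tests were done on log2(FPKM + 0.5) with limma across these 12379 genes, and a change is called when the Benjamini-Hochberg adjusted p is under 0.05. Every log2 fold change below is on that scale, which understates changes of genes near 0.5 FPKM or lower. Gli1, a known target of the ligand, rose in both lines: it averaged 147 ± 6.69 FPKM in NIH-3T3 SHHN and 0.131 ± 0.0478 FPKM in NIH-3T3 control, and 120 ± 7.69 FPKM in MLg SHHN and 0.583 ± 0.280 FPKM in MLg control (SD, n = 3 each). Of 9 fibroblast markers, all passed the filter, but Thy1, a surface protein, was high in NIH-3T3 (115 FPKM or more in each library) and at most 0.106 FPKM in MLg. The epithelial markers Epcam and Krt18 were listed at 0 in all 12 libraries, and the other epithelial markers were at most 0.558 FPKM. Immune markers summed to 0.622 to 1.86 FPKM and skeletal muscle markers to at most 2.54 FPKM in any library. Read depth is unknown, so no counting interval is given. NIH-3T3 SHHN replicate 1 stood apart from its group in several collagen genes, as the values below show. In whole cultures, fewer cells making a transcript and less transcript per cell cannot be told apart.

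The 3 chains of the main interstitial fibrils were the most abundant collagens in all groups. Col1a1 ranked between the 6th and the 48th most abundant gene of a library, Col3a1 between the 7th and the 38th, and Col1a2 between the 12th and the 57th. Col5a1, Col5a2, Col6a1 and Col6a2 were the other members above 100 FPKM in every library. All 44 genes together held 1.92% ± 0.261 of summed FPKM in NIH-3T3 SHHN and 2.01% ± 0.364 in NIH-3T3 control, and 2.03% ± 0.276 in MLg SHHN and 1.91% ± 0.146 in MLg control (SD, n = 3 each). These shares overlapped between treated and control libraries of each line. The makeup of that share differed. Fibrillar chains made up 77.1% ± 3.60 of collagen FPKM in NIH-3T3 SHHN and 86.1% ± 0.898 in NIH-3T3 control, and 77.3% ± 0.781 in MLg SHHN and 86.4% ± 0.910 in MLg control (SD, n = 3 each). Type VI chains made up 19.5% ± 2.86 in NIH-3T3 SHHN and 11.7% ± 0.806 in NIH-3T3 control, and 13.7% ± 0.645 in MLg SHHN and 10.0% ± 0.661 in MLg control. Type IV chains made up 2.54% ± 0.656 in NIH-3T3 SHHN and 1.42% ± 0.0606 in NIH-3T3 control, and 7.08% ± 0.154 in MLg SHHN and 2.15% ± 0.210 in MLg control. For each of these 3 classes the treated and control libraries of a line did not overlap. These percentages are parts of 1 total, so a rise of 1 class lowers the others. Summed fibrillar FPKM itself overlapped in MLg (6976 to 8485 with SHHN and 7780 to 8926 in control). In NIH-3T3 it did not (7106 to 8630 with SHHN and 9744 to 11486 in control).

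**Figure D1:**
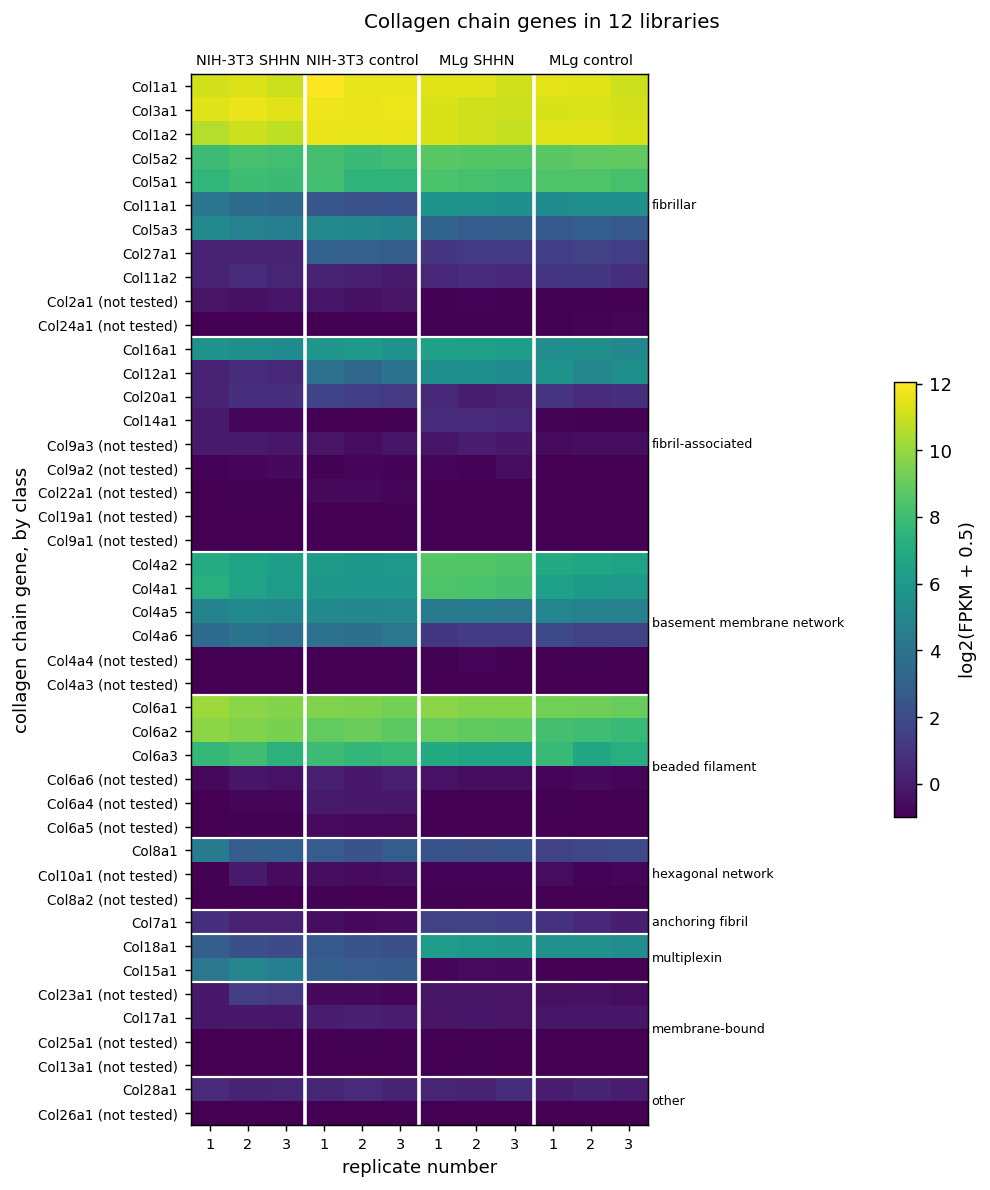
Level of each of the 44 collagen chain genes (rows, grouped by class) in the 12 libraries (columns, by group and replicate number), as log2(FPKM + 0.5) on a colour scale. Genes marked as not tested had 0.5 FPKM in fewer than 3 libraries; Col1a1, Col1a2 and Col3a1 are the brightest rows in every library.

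The comparison of treated with untreated NIH-3T3 asked which collagen genes respond to the ligand in embryonic fibroblasts. Of the 26 tested genes, 11 changed, or 42.3%, against 31.4% of all genes tested. Of the 11, 6 rose and 5 fell: higher calls were 23.1% of the collagen genes and 16.6% of all genes, and lower calls 19.2% and 14.8%. The median log2 fold change was -0.01 over the collagen genes and -0.01 over all genes. After quantile normalization, 7 rose and 3 fell. In MLg, 9 of 26 changed, or 34.6%, against 22.8% of all genes. Here 7 rose (26.9%, against 12.8% of all genes) and 2 fell (7.69%, against 10.0%), with a median of 0.12 against 0.00 over all genes. Among the 7, Col14a1 passed the filter solely through MLg SHHN, where it was highest. Without MLg SHHN replicate 3 the count in MLg was 5, and Col14a1 then missed the filter. Over all genes, leaving out 1 library gave 1969 to 3261 calls in MLg (2818 reported). Col4a1, Col4a2, Col6a2 and Col7a1 rose in both lines, 16 of 26 genes changed in at least 1 line, and 10 changed in neither. These joint counts were not made over all genes, so they do not set collagen genes apart. The effects differed between lines by the test of the difference in 8 of 26 genes, or 30.8%, against 13.4% of all genes. In 2 the effect was higher in NIH-3T3 (7.69%, against 7.48%) and in 6 lower (23.1%, against 5.95%), a count that includes Col14a1. The 2 include Col15a1, which passed the filter solely through the NIH-3T3 libraries. Across the 26 genes the 2 effects had a Spearman correlation of 0.53 and a Pearson correlation of 0.40, as a description across genes that share libraries. The correlation over all genes was not computed.

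**Figure D2:**
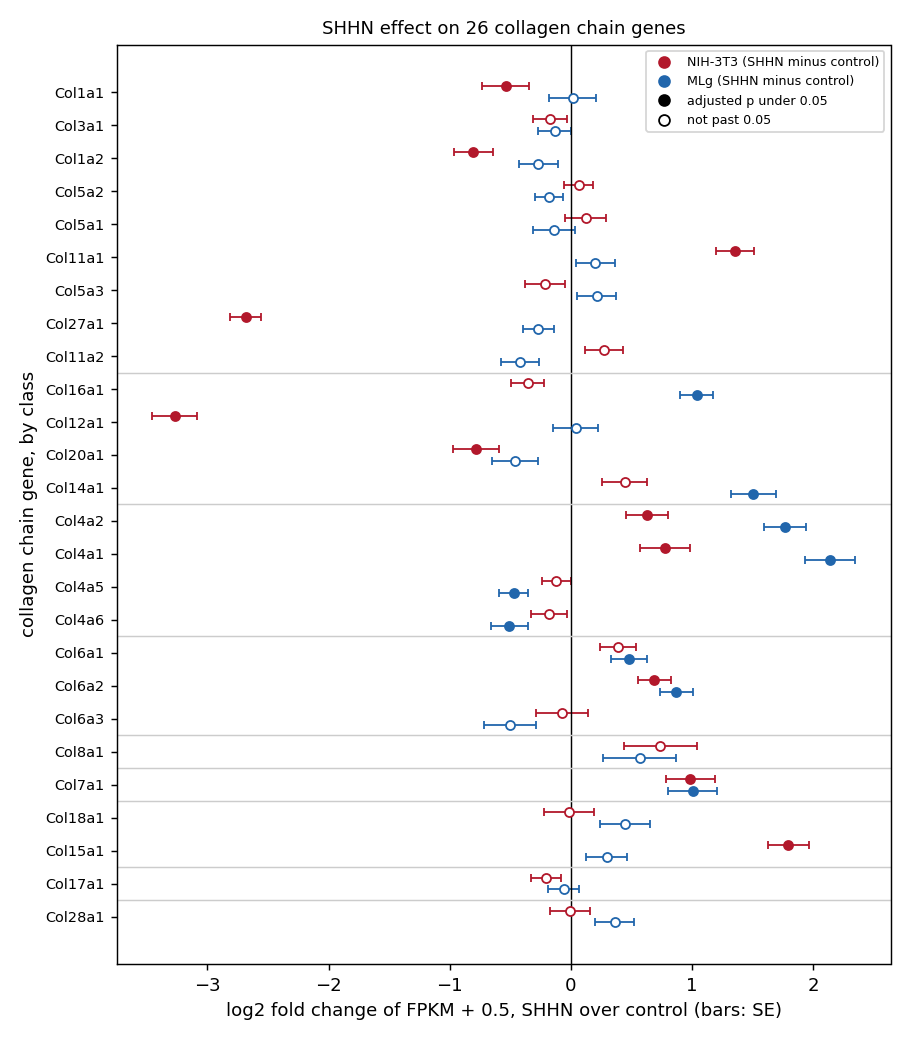
SHHN effect on the 26 tested collagen chain genes, as log2 fold change of FPKM + 0.5 (x axis; bars are SE of the limma fit), red for NIH-3T3 and blue for MLg, with filled points past an adjusted p of 0.05. Col12a1 (-3.27) and Col27a1 (-2.69) lie far left in NIH-3T3 alone, and Col4a1 (2.14) and Col4a2 (1.77) far right in MLg.

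Among fibrillar chains, 1 of 9 tested rose and 3 fell in NIH-3T3, against 16.6% and 14.8% of all genes. In MLg 0 of 9 passed with limma, against 22.8% of all genes, and 1 had an unadjusted p under 0.05. The steepest fall of this class was that of Col27a1, a fibrillar chain best known from cartilage. Col27a1 had 0.732, 0.749 and 0.672 FPKM in NIH-3T3 SHHN, against 7.80, 7.39 and 6.83 FPKM in NIH-3T3 control. Every treated library was below every control library, a 10.2-fold lower mean (log2 fold change -2.69, SE 0.13, adjusted p = 7.21e-09). In MLg, Col27a1 had 1.56, 1.81 and 1.82 FPKM with SHHN, against 2.05, 2.43 and 2.07 FPKM in control (-0.27, SE 0.13, adjusted p = 0.157). The effect differed between the lines by -2.42 (SE 0.18, adjusted p = 2.49e-06, NIH-3T3 minus MLg).

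Col11a1, whose product is part of thin fibrils of cartilage and is also made by fibroblasts, went the other way in NIH-3T3. Its values were 16.8, 11.5 and 10.2 FPKM in NIH-3T3 SHHN, against 5.18, 4.23 and 4.46 FPKM in NIH-3T3 control. The groups did not overlap, and the mean was 2.78-fold higher (1.35, SE 0.16, adjusted p = 1.77e-05). In MLg it had 54.0, 50.2 and 46.9 FPKM with SHHN, against 39.6, 45.2 and 46.3 FPKM in control (0.20, SE 0.16, adjusted p = 0.415). The lines differed in this effect by 1.15 (SE 0.22, adjusted p = 0.00415). Of the chondrocyte markers, Sox9, a factor of cartilage, rose in both lines (1.08 in NIH-3T3 and 2.21 in MLg), while Acan was at most 0.0168, Matn3 at most 0.225 and Comp at most 0.742 FPKM in any library. The summed level of these 4 markers was 97.0 to 115 FPKM in NIH-3T3 SHHN and 38.5 to 66.4 FPKM in NIH-3T3 control, nearly all of it Sox9, and their part in the Col11a1 result was not tested. The cartilage collagen Col2a1 was between 0.259 and 0.328 FPKM in NIH-3T3 SHHN and between 0.257 and 0.338 FPKM in NIH-3T3 control.

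The major chains Col1a1 and Col1a2, which together build type I collagen, had lower FPKM in treated NIH-3T3. FPKM totals differed between libraries, and Col1a1, Col1a2 and Col3a1 together held 1.26%, 1.63% and 1.23% of all FPKM in NIH-3T3 SHHN. In NIH-3T3 control they held 1.99%, 1.41% and 1.55%, so these shares overlapped. Col1a2 had 1526, 2122 and 1782 FPKM in NIH-3T3 SHHN, against 3252, 2984 and 3163 FPKM in NIH-3T3 control. This was a 1.73-fold lower mean (-0.80, SE 0.16, adjusted p = 0.00156), which did not pass after quantile normalization (0.235). Col1a1 had 2311, 2669 and 2035 FPKM in NIH-3T3 SHHN, against 4242, 3031 and 2991 FPKM in NIH-3T3 control. Its call was at the threshold (-0.54, SE 0.19, adjusted p = 0.0491) and held under 6 of 21 alternatives. It was 0.959 after quantile normalization, 0.061 after median-ratio scaling, and between 0.0545 and 0.156 without any 1 of 9 libraries, all but NIH-3T3 SHHN replicate 2, NIH-3T3 control replicate 2 and MLg control replicate 3. In MLg, Col1a1 had 2734, 2844 and 2224 FPKM with SHHN, against 2922, 2709.9 and 2114 FPKM in control. The groups overlapped, and the log2 fold change was 0.02 with a 95% interval of -0.40 to 0.43. Col1a2 in MLg had 2446, 2243 and 1943 FPKM with SHHN, against 2730.2, 2781 and 2446 FPKM in control (-0.27, adjusted p = 0.272). The summed level of the fibroblast markers differed beside them in NIH-3T3: the 9 summed to 8443 to 10470 FPKM in NIH-3T3 SHHN and 13280 to 14640 FPKM in NIH-3T3 control, a list that holds both type I chains and Col3a1. Vim, an intermediate filament protein outside that trio, averaged 1050 ± 31.9 FPKM in NIH-3T3 SHHN and 1785 ± 219 FPKM in NIH-3T3 control (SD, n = 3 each). Thy1, on the same list, was the other way round, at 167 to 204 FPKM in NIH-3T3 SHHN and 115 to 125 FPKM in NIH-3T3 control. Their part in the type I result was not tested. Neither chain differed in its effect between lines past the threshold (adjusted p of 0.208 for Col1a1 and 0.137 for Col1a2).

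Col3a1, the chain of type III collagen, did not pass in either line. It had 2771, 3248 and 2874 FPKM in NIH-3T3 SHHN, against 3368, 3269.8 and 3351 FPKM in NIH-3T3 control (-0.17, 95% interval -0.47 to 0.13). In MLg it had 2489, 2193 and 2100.3 FPKM with SHHN, against 2463, 2555 and 2401 FPKM in control (-0.13, 95% interval -0.43 to 0.17). Type V chains, which start fibril assembly, also did not pass. Col5a1 averaged 229 ± 30.9 FPKM in NIH-3T3 SHHN and 214 ± 59.7 FPKM in NIH-3T3 control, and 303 ± 28.4 FPKM in MLg SHHN and 333 ± 27.7 FPKM in MLg control (SD, n = 3 each). For Col5a2 and Col5a3 the log2 fold changes lay between -0.21 and 0.21 in both lines. Col11a2, at 0.453 to 1.70 FPKM in all libraries, had 0.27 in NIH-3T3 and -0.42 in MLg, with a difference between lines of 0.69 (adjusted p = 0.0512). That difference passed without NIH-3T3 SHHN replicate 1 (0.0492), NIH-3T3 control replicate 1 (0.0477) or MLg control replicate 3 (0.0354). The MLg effect passed without MLg control replicate 3 (0.0448) and with 6 libraries per fit (0.0466).

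**Figure D3:**
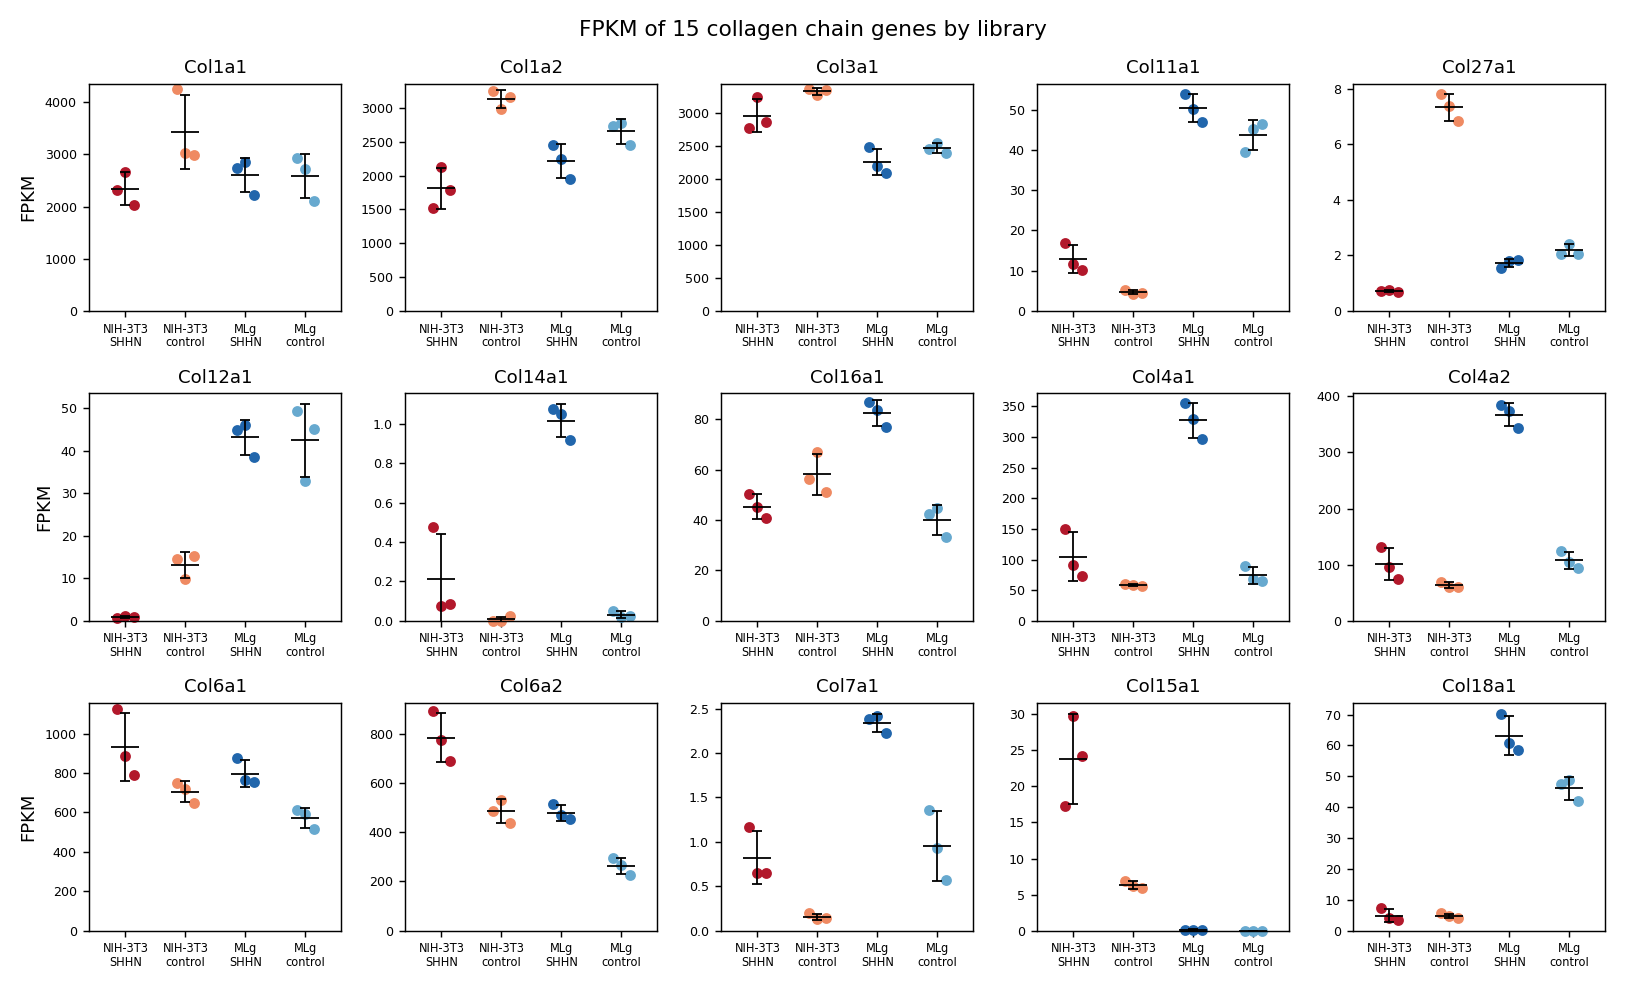
FPKM of 15 collagen chain genes in each library (points; y axis linear from 0), with the mean and SD of each group of 3 in black; the SD bar of Col14a1 in NIH-3T3 SHHN extends below the axis. Col12a1 and Col27a1 sit near 0 in NIH-3T3 SHHN, Col4a1, Col4a2 and Col16a1 are highest in MLg SHHN, and Col15a1 is near 0 in both MLg groups.

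Of 4 tested fibril-associated chains, 2 fell in NIH-3T3, where 14.8% of all genes fell, and 2 rose in MLg, where 12.8% of all genes rose. The pair that rose includes Col14a1, whose call is set aside here because only the libraries in which it is high took it past the filter. Col12a1, which lies on type I fibrils, was the lowest log2 fold change of any collagen gene in NIH-3T3. It had 0.718, 1.08 and 0.904 FPKM in NIH-3T3 SHHN, against 14.5, 9.75 and 15.3 FPKM in NIH-3T3 control. The groups were far apart, with a 14.6-fold lower mean (-3.27, SE 0.19, adjusted p = 2.27e-08). In MLg the same gene had 45.0, 46.2 and 38.5 FPKM with SHHN, against 49.4, 32.9 and 45.1 FPKM in control. These groups overlapped (0.04, 95% interval -0.36 to 0.44), and the effect differed between the lines by -3.31 (SE 0.26, adjusted p = 5.09e-06).

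Col16a1, a chain of the same class, rose in MLg. It had 86.9, 83.6 and 76.9 FPKM in MLg SHHN, against 42.3, 44.7 and 33.4 FPKM in MLg control, a 2.06-fold higher mean (1.04, SE 0.14, adjusted p = 6.79e-05). In NIH-3T3 it had 50.3, 45.1 and 40.7 FPKM with SHHN, against 56.2, 67.2 and 51.3 FPKM in control (-0.35, adjusted p = 0.0655, and 0.0462 without NIH-3T3 control replicate 3 or 0.0423 without MLg control replicate 3). The difference of -1.39 (SE 0.19) passed at an adjusted p of 4.20e-04. Col14a1, another chain on fibril surfaces, had 1.08, 1.05 and 0.919 FPKM in MLg SHHN, against 0.0503, 0.0192 and 0.0264 FPKM in MLg control. It was at a low level even when treated (1.51, SE 0.19, adjusted p = 4.27e-05). NIH-3T3 had 0.476, 0.0753 and 0.0855 FPKM of Col14a1 with SHHN, against 0, 0 and 0.0221 FPKM in control (0.44, adjusted p = 0.0897, and 0.026 with a pseudocount of 0.1). Its difference between lines (-1.06, adjusted p = 0.0182) was lost without NIH-3T3 SHHN replicate 2 (0.055) and when the pseudocount was 0.1 (0.0648). Col20a1, a minor chain of this class, had 0.739, 1.22 and 1.22 FPKM in NIH-3T3 SHHN, against 2.60, 2.19 and 1.74 FPKM in NIH-3T3 control (-0.78, SE 0.19, adjusted p = 0.00648). In MLg it had 0.904, 0.584 and 0.752 FPKM with SHHN, against 1.52, 0.953 and 1.18 FPKM in control, without overlap (-0.46, adjusted p = 0.106). The effects on Col20a1 did not differ between lines past the threshold (-0.32, adjusted p = 0.467).

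The type IV chains of basement membrane split by gene pair in MLg. Col4a1 and Col4a2, the ubiquitous pair, rose, and Col4a5 and Col4a6 fell. Col4a1 had 355, 329.5 and 297 FPKM in MLg SHHN, against 89.5, 69.0 and 64.2 FPKM in MLg control. Every treated library was above every control library, with a 4.41-fold higher mean (2.14, SE 0.21, adjusted p = 4.43e-06). Col4a2 had 385, 374 and 344 FPKM in MLg SHHN, against 125, 104 and 94.8 FPKM in MLg control, a 3.40-fold higher mean (1.77, SE 0.17, adjusted p = 4.59e-06). The same genes rose less in NIH-3T3. There Col4a1 had 149.9, 90.9 and 73.6 FPKM with SHHN, against 59.4, 57.9 and 56.8 FPKM in control (0.78, SE 0.21, adjusted p = 0.0108). Col4a2 had 131, 95.7 and 75.3 FPKM in NIH-3T3 SHHN, against 69.6, 59.6 and 60.9 FPKM in NIH-3T3 control (0.63, SE 0.17, adjusted p = 0.0126). The groups did not overlap for either gene, but replicate 1 was the highest treated library for both. Without it the log2 fold change was 0.49 for Col4a1 and 0.42 for Col4a2, and Col4a2 no longer passed (0.0532). With 6 libraries per fit, neither passed (0.073 for Col4a1 and 0.0746 for Col4a2). The lines differed by -1.36 for Col4a1 (adjusted p = 0.00769) and -1.14 for Col4a2 (adjusted p = 0.00723).

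Col4a1 and Col4a2 lie head to head on mm10 chromosome 8, Col4a1 on the minus strand (11198423-11312826) and Col4a2 on the plus strand (11312805-11449287), and their annotated first bases overlap by 22 bases in GENCODE M21. Whether fragments were counted by strand is not given in the sources used here. Any part of this region in the rise of both genes was not tested. The 30 bases that hold both starts are shown. They come from RefSeq's GRCm38.p6 tables, plus strand, chr8:11312801-11312830, and capitals mark the overlap.
Col4a1 and Col4a2 starts: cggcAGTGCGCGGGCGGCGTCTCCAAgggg

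Col4a5 and Col4a6 also lie head to head, on chromosome X with 1308 bases between them, Col4a5 on the plus strand (141475385-141689234) and Col4a6 on the minus strand (141165403-141474076). Both fell in MLg. Col4a5 had 21.1, 19.7 and 18.5 FPKM in MLg SHHN, against 31.3, 26.5 and 25.3 FPKM in MLg control (-0.47, SE 0.12, adjusted p = 0.0102). Col4a6 had 1.69, 1.91 and 1.80 FPKM in MLg SHHN, against 3.13, 2.44 and 2.75 FPKM in MLg control (-0.51, SE 0.15, adjusted p = 0.0255). The groups did not overlap, but the calls depended on single libraries. For Col4a5 the adjusted p was 0.0519 when MLg control replicate 1 was left out and 0.0547 when MLg SHHN replicate 3 was, and that of Col4a6 was between 0.0551 and 0.0981 without MLg SHHN replicate 1 or 3 or MLg control replicate 1 or 3. In NIH-3T3 neither passed (-0.12 and -0.18). Col4a3 and Col4a4, a pair best known from kidney, were at most 0.0572 FPKM.

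Type VI chains form a filament network close to the cell surface. Col6a2 rose in both lines. It had 890.2, 774 and 689 FPKM in NIH-3T3 SHHN, against 486, 532 and 435 FPKM in NIH-3T3 control (0.69, SE 0.14, adjusted p = 0.00173). In MLg it had 515, 469.5 and 451 FPKM with SHHN, against 295, 265 and 227 FPKM in control (0.87, SE 0.14, adjusted p = 3.54e-04). Neither pair of groups overlapped, and the effects did not differ between lines past the threshold (-0.18, adjusted p = 0.585). Col6a1 had 874, 764 and 752 FPKM in MLg SHHN, against 610.2, 590.3 and 514 FPKM in MLg control. Its call in MLg (0.48, SE 0.15, adjusted p = 0.030) was lost without any 1 of the MLg libraries other than control replicate 1 (0.0616 to 0.115), with no filter (0.051) and with median-ratio scaling (0.078). In NIH-3T3, Col6a1 had 1124, 886 and 789.6 FPKM with SHHN, against 752, 719.8 and 646 FPKM in control (0.39, adjusted p = 0.0587, 0.00318 after quantile normalization and 0.0291 without NIH-3T3 SHHN replicate 3). Col6a3, the long chain of the filament, had 124, 105 and 99.7 FPKM in MLg SHHN, against 219.8, 113 and 147 FPKM in MLg control (-0.50, adjusted p = 0.123). Without MLg control replicate 2 its adjusted p was 0.0323. In NIH-3T3 it averaged 215 ± 50.1 FPKM with SHHN and 223 ± 23.1 FPKM in control (SD, n = 3 each).

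Chains of other supramolecular forms followed. Col7a1, the chain of anchoring fibrils that fasten epithelium to stroma, rose in both lines from low levels. It had 1.17, 0.645 and 0.650 FPKM in NIH-3T3 SHHN, against 0.198, 0.129 and 0.144 FPKM in NIH-3T3 control (0.99, SE 0.20, adjusted p = 0.00206). In MLg it had 2.38, 2.42 and 2.23 FPKM with SHHN, against 1.35, 0.926 and 0.565 FPKM in control (1.01, SE 0.20, adjusted p = 0.00225). Neither pair of groups overlapped, and the difference between lines was -0.02 with a 95% interval of -0.64 to 0.59. Col15a1, a chain of the basement membrane zone, had 17.4, 29.8 and 24.2 FPKM in NIH-3T3 SHHN, against 6.89, 6.23 and 5.90 FPKM in NIH-3T3 control, a 3.75-fold higher mean (1.80, SE 0.17, adjusted p = 2.77e-06). In MLg it was near 0, with 0.0726, 0.153 and 0.130 FPKM with SHHN, against 0, 0 and 0.00827 FPKM in control (0.30, adjusted p = 0.259). The MLg effect passed with a pseudocount of 0.1 (0.00355) and with 6 libraries per fit (0.0481). Its difference between lines of 1.50 (adjusted p = 0.0012) thus compares a clear rise with values far under the pseudocount, and it did not pass with a pseudocount of 0.1 (0.132). Col18a1, the related chain whose terminal piece is endostatin, had 70.3, 60.8 and 58.6 FPKM in MLg SHHN, against 47.4, 48.9 and 42.0 FPKM in MLg control. The groups did not overlap but the adjusted p was 0.148, or 0.0407 with the replicate block, 0.0169 with 6 libraries per fit and 0.0269 without NIH-3T3 SHHN replicate 1. The difference between lines (-0.47, adjusted p = 0.326) was -0.76 without that library (0.0261). In NIH-3T3, Col18a1 averaged 4.90 ± 2.08 FPKM with SHHN and 4.75 ± 0.779 FPKM in control (SD, n = 3 each). Col8a1, a network chain of vessel walls, had 19.6, 6.74 and 6.86 FPKM in NIH-3T3 SHHN, against 6.11, 4.54 and 6.39 FPKM in NIH-3T3 control (0.74, adjusted p = 0.0804). NIH-3T3 SHHN replicate 1 lay far above the rest. The effect was 0.25 without it (0.296), 0.99 without NIH-3T3 SHHN replicate 2 (0.0377) and 0.98 without replicate 3 (0.0375). In MLg it had 4.43, 4.28 and 4.41 FPKM with SHHN, against 2.34, 2.91 and 3.16 FPKM in control (0.57, adjusted p = 0.216). The MLg effect passed with 6 libraries per fit (0.0155) and without NIH-3T3 SHHN replicate 1 (0.0136).

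Endothelial markers moved beside these basement membrane genes. The summed level of Pecam1, Cdh5, Kdr and Tek was 6.73 to 25.3 FPKM in NIH-3T3 SHHN and 5.75 to 7.93 FPKM in NIH-3T3 control, and 5.78 to 6.51 FPKM in MLg SHHN and 0.101 to 0.154 FPKM in MLg control. Of the 4 markers, 2 passed the filter. Cdh5, a junction protein, rose in both lines (3.72 in NIH-3T3 and 3.43 in MLg) and Tek, a receptor, in MLg (1.38), whereas the defining markers Kdr and Pecam1 were at most 0.0128 and 0.137 FPKM in any library. The part of other cells in the type IV and Col15a1 results was not tested.

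The filter left out 18 collagen genes. Of these, 9 were under 0.1 FPKM in every library, and Col9a1 and Col26a1 were listed at 0 in all 12. Just inside the filter, with exactly 3 libraries at 0.5 FPKM or more, were Col14a1 (the 3 MLg SHHN libraries) and Col17a1, a membrane chain of hemidesmosomes, with 0.512, 0.610 and 0.526 FPKM in NIH-3T3 control. Just outside, with 2 such libraries each, were Col23a1 and Col6a6. Col23a1, a membrane-bound chain, had 0.431, 2.06 and 1.74 FPKM in NIH-3T3 SHHN, against 0.138, 0.115 and 0.0765 FPKM in NIH-3T3 control. NIH-3T3 SHHN replicate 1 was again apart from the other treated libraries. Col6a6, an alternative type VI chain, had 0.0979, 0.379 and 0.269 FPKM in NIH-3T3 SHHN, against 0.610, 0.413 and 0.620 FPKM in NIH-3T3 control. Its relative Col6a4 was at 0.0150 to 0.0950 FPKM in NIH-3T3 SHHN, against 0.400 to 0.462 FPKM in NIH-3T3 control. The cartilage genes Col9a2, Col9a3 and Col10a1 stayed under 0.5 FPKM, as did Col4a3, Col4a4, Col6a5, Col8a2, Col13a1, Col19a1, Col2a1, Col22a1, Col24a1 and Col25a1. Col28a1, at 0.493 to 1.14 FPKM, was tested and did not pass in either line.

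Promoters of 4 genes are shown as examples of genes that fell, rose in 1 line or rose in both: Col27a1 fell in NIH-3T3, Col11a1 and Col15a1 rose there, and Col7a1 rose in both lines. Each is the 250 bases before the RefSeq start, read 5′ to 3′ along the gene (GRCm38.p6): Col27a1 at chr4:63215162-63215411, Col11a1 at chr3:114030290-114030539, Col15a1 at chr4:47207762-47208011 and Col7a1 at chr9:108953336-108953585, all on the plus strand. The RefSeq start of Col27a1 lies inside the longer GENCODE gene model. Capitals mark matches on either strand to the letters of 4 motifs. The first is the TATA box TATAAA, which sets the start of some promoters. The next is the CCAAT box, found upstream of many genes and spelled by its name. The other two are the GC box GGGCGG, where Sp factors are known to bind, and the Gli motif GACCACCCA, the letters that Gli factors prefer. Matches do not overlap in the printed sequences.
Col27a1: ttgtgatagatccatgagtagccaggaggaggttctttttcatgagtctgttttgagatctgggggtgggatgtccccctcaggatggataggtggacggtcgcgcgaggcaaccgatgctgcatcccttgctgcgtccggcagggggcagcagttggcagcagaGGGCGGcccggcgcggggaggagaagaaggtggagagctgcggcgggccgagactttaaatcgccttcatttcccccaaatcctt
Col11a1: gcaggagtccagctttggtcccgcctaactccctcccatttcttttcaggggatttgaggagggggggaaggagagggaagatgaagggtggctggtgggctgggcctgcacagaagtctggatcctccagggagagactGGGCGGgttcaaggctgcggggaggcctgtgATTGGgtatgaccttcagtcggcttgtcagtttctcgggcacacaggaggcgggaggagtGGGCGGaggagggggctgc
Col15a1: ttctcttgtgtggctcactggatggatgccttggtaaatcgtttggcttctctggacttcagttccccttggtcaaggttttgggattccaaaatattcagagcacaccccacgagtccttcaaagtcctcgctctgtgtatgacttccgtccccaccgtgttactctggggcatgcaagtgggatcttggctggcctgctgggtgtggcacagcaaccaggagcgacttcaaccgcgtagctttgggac
Col7a1: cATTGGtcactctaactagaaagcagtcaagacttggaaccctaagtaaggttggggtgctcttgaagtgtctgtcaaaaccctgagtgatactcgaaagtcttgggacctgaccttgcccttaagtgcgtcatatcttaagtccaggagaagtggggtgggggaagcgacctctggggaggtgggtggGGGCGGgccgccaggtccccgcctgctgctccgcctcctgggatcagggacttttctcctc

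A GC box began 85 bases before the Col27a1 start, 110 and 19 bases before that of Col11a1, and 61 bases before that of Col7a1. A CCAAT box on the other strand lay 79 bases before the start of Col11a1 and 249 bases before that of Col7a1. The Col15a1 window held none of the 4 motifs. The Gli motif was in 0 of 38 promoter entries of 35 collagen genes, and in 0.225% of all 32851 entries. With so rare a motif, 0 among 38 entries does not set collagen promoters apart from others. A GC box was in 57.9% of the collagen entries and 32.7% of all entries, a CCAAT box in 34.2% and 33.8%, and a TATA box in 13.2% and 12.4%. A match is a description of letters, and no match says nothing about a factor outside this window.

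Without ligand the lines already differed in many collagen genes. Of 26 tested, 18 differed (69.2%, against 50.1% of all genes), 10 higher in NIH-3T3 control (38.5%, against 24.4%) and 8 lower (30.8%, against 25.7%). Col15a1 was highest in NIH-3T3 relative to MLg, at 6.89, 6.23 and 5.90 FPKM in NIH-3T3 control, against 0, 0 and 0.00827 FPKM in MLg control (3.76, SE 0.17, adjusted p = 5.84e-10). It passed the filter solely through the NIH-3T3 libraries, so its call lends no weight to the count of 10. The size of its difference rests on the pseudocount of 0.5, since the MLg control values are at or near 0. Col5a3, a minor type V chain, averaged 32.4 ± 2.58 FPKM in NIH-3T3 control and 6.17 ± 0.676 FPKM in MLg control (2.31, SE 0.16). Col4a6 averaged 15.0 ± 2.01 FPKM in NIH-3T3 control and 2.77 ± 0.346 FPKM in MLg control (2.24, SE 0.15). Higher in MLg were Col18a1, at 4.75 ± 0.779 FPKM in NIH-3T3 control and 46.1 ± 3.66 FPKM in MLg control (-3.16, SE 0.21), and Col11a1, at 4.62 ± 0.499 FPKM in NIH-3T3 control and 43.7 ± 3.62 FPKM in MLg control (-3.11, SE 0.16). The groups did not overlap in these 5 genes, which lie among the largest differences in each direction. The share of all genes without overlap was not counted. Col1a1 and Col1a2 did not pass (0.40 and 0.24), and the excess of Col3a1 in NIH-3T3 (0.43, adjusted p = 0.0196) had the other sign after quantile normalization (-0.07) and was lost without replicate 3 of NIH-3T3 control (0.061) or of MLg control (0.0601).

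This comparison shares its control libraries with those of the ligand, so the values are given side by side. Col12a1, Col11a1 and Col7a1 were lower in NIH-3T3 control than in MLg control, with log2 fold changes of -1.66, -3.11 and -1.10, and Col27a1 was higher (1.55). After SHHN, Col12a1 was at 0.902 ± 0.183 FPKM in NIH-3T3 and 43.2 ± 4.12 FPKM in MLg, Col11a1 at 12.8 ± 3.46 FPKM in NIH-3T3 and 50.4 ± 3.51 FPKM in MLg, and Col27a1 at 0.718 ± 0.0409 FPKM in NIH-3T3 and 1.73 ± 0.146 FPKM in MLg (SD, n = 3 each).

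**Figure D4:**
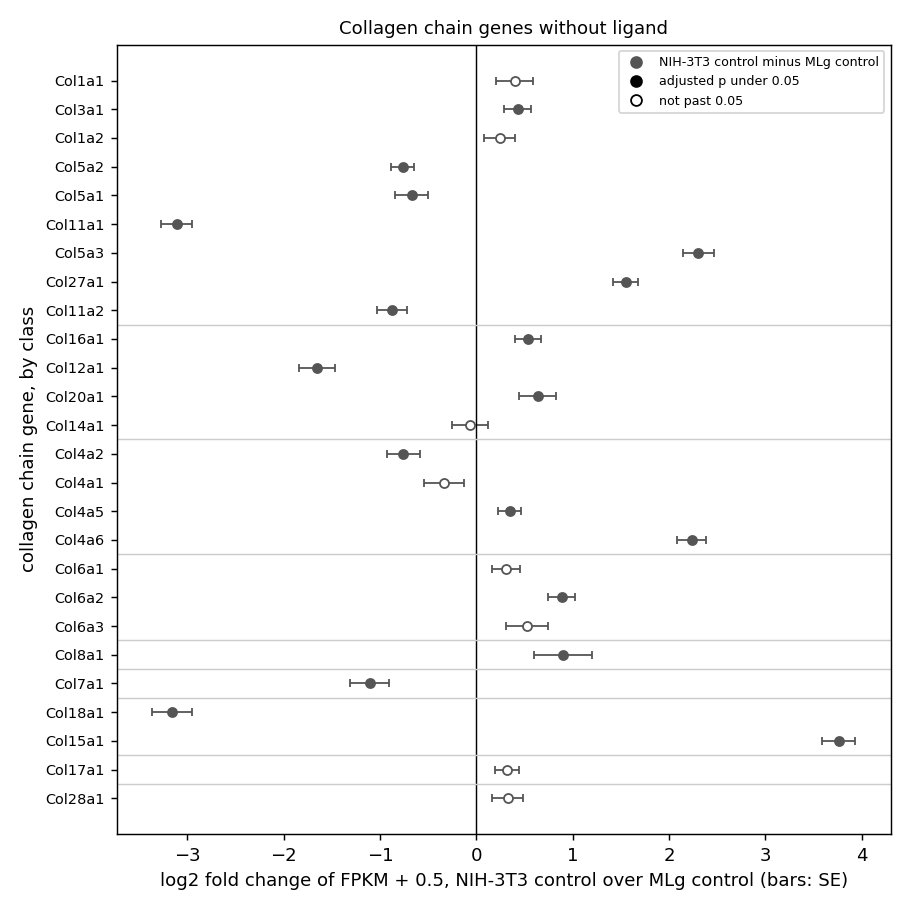
Difference between NIH-3T3 control and MLg control for the 26 tested collagen chain genes, as log2 fold change of FPKM + 0.5 (x axis; bars are SE of the limma fit), with filled points past an adjusted p of 0.05. Col15a1 (3.76), Col5a3 (2.31) and Col4a6 (2.24) lie on the NIH-3T3 side, and Col18a1 (-3.16) and Col11a1 (-3.11) on the MLg side.

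Genes that fold, trim and crosslink collagen were counted from lists of known members. Of 18 tested genes for folding and modification, 3 rose and 5 fell in NIH-3T3 and 1 rose and 3 fell in MLg (medians -0.06 and -0.21, against -0.01 and 0.00 over all genes). Over all genes 31.4% were called in NIH-3T3 and 22.8% in MLg, so the MLg count of this list is at the background. P4ha3, a prolyl hydroxylase subunit, fell in both lines (-1.55 in NIH-3T3 and -1.15 in MLg), and P3h2, a prolyl 3-hydroxylase, rose in both (1.15 and 1.67). The lysyl hydroxylase Plod1 rose in NIH-3T3 (0.76). Ppib, a prolyl isomerase of the endoplasmic reticulum, fell in MLg (-0.43, adjusted p = 0.0347), a call lost without any 1 of the MLg libraries other than control replicate 3 (0.062 to 0.145). Some NIH-3T3 calls of this list were lost with 6 libraries per fit (adjusted p of 0.0625 to 0.126), and another MLg call with no filter (0.0687). Of 5 tested genes for trimming of procollagen ends, 3 fell in each line and 0 rose, where 14.8% of all genes fell in NIH-3T3 and 10.0% in MLg. These were Adamts2, which removes the amino-terminal propeptide (-1.69 in NIH-3T3 and -0.89 in MLg), its relative Adamts14 (-0.64 and -1.12) and Bmp1, which removes the carboxy-terminal propeptide (-0.45 and -0.70). In NIH-3T3 the calls of Adamts14 (adjusted p = 0.0216) and Bmp1 (0.0191) were lost with 6 libraries per fit (0.0691 and 0.0807) and without NIH-3T3 SHHN replicate 1 (0.0814 and 0.083), that of Adamts14 also without NIH-3T3 SHHN replicate 3 (0.0688) or control replicate 1 (0.0873), and that of Bmp1 without control replicate 2 (0.0642).

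Of 5 crosslinking enzymes, 1 fell in NIH-3T3, and 2 rose and 3 fell in MLg. The NIH-3T3 count is under the background of 31.4% of all genes called. In MLg all 5 were called, against 22.8% of all genes. Lox, a lysyl oxidase, averaged 78.3 FPKM in NIH-3T3 SHHN and 466 FPKM in NIH-3T3 control (-2.59), and 57.0 FPKM in MLg SHHN and 165 FPKM in MLg control (-1.52). In MLg its relatives Loxl2 (1.17) and Loxl4 (0.93) rose. The MLg call of another relative, Loxl3, was lost without MLg SHHN replicate 2 or 3 or MLg control replicate 1 or 2 (0.0721 to 0.134). Of 7 collagen receptors and uptake genes, 2 fell in NIH-3T3 and 4 in MLg, against 31.4% and 22.8% of all genes called in either direction, so the NIH-3T3 count is near the background. Mrc2, which takes up collagen fragments, averaged 89.4 FPKM in MLg SHHN and 276 FPKM in MLg control (-1.63), and 48.5 FPKM in NIH-3T3 SHHN and 67.1 FPKM in NIH-3T3 control (-0.47). Itga11, an integrin chain for fibrillar collagen, fell in NIH-3T3 (-1.46) and in MLg (-0.67, adjusted p = 0.0354). The MLg call was lost without any 1 of the MLg libraries other than control replicate 1 (0.0574 to 0.136), with a pseudocount of 0.1 (0.0624) and with no filter (0.0683). The collagen receptors Ddr1 (-1.02) and Itga2 (-0.91) fell in MLg while Ddr1 in NIH-3T3 was at 0.17 (adjusted p = 0.427). Of 4 fibril-binding proteoglycans, 3 fell in NIH-3T3 and 1 in MLg, the MLg count near the background of 22.8% called and the NIH-3T3 count against 31.4%. Lum (-1.56), Fmod (-1.06) and Dcn (-0.99), which coat fibrils, fell in NIH-3T3, Dcn not after quantile normalization (0.0991) or with 6 libraries per fit (0.0918), and Fmod fell in MLg (-0.80), not without MLg control replicate 2 (0.0512). Of 4 tested genes for collagen breakdown, 1 rose and 1 fell in NIH-3T3 (31.4% of all genes were called there), and 0 passed in MLg with limma, where 1 had an unadjusted p under 0.05. The gelatinase Mmp9 fell (-2.27) and the cysteine protease Ctsk rose (0.69, adjusted p = 0.0204), Ctsk not without NIH-3T3 SHHN replicate 2 (0.057) or 3 (0.0928) or NIH-3T3 control replicate 3 (0.0843), nor with a pseudocount of 0.1 (0.0864) or 6 libraries per fit (0.0786).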

How the data were processed

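RNA-seq of 12 libraries was deposited by the authors as 1 table of FPKM per gene, with TopHat2 2.0.12, Cufflinks 2.2.1 and mm10 named in the submitters' processing notes; annotation and options are not given in the sources used here. A row without values was left out. Whether low values were whole multiples of 1 read was searched for, and 23.6% to 27.7% were whole within 0.1, near the 20% that any spacing gives, so depth was not recovered. FPKM totals were 470218 to 659862. Genes with 0.5 FPKM in at least 3 libraries were fitted in 1 model of 4 group means on log2(FPKM + 0.5) with limma 3.58.1 (R 4.3.3, trended variance), with Benjamini-Hochberg adjustment over 12379 genes. Each line's SHHN libraries were set against its controls, these effects against each other, and NIH-3T3 control against MLg control. The code was tested on simulated data. Collagen genes and lists were chosen with earlier results of these data known, and the CCAAT and GC box motifs were added after results were seen. Any collagen gene could be named; values per library were given for those called with a log2 fold change of at least 1 in size (at most 8 each way per comparison) and for Col1a1, Col1a2, Col3a1, Col5a1, Col6a1, Col4a1 and Col12a1, and other genes of the pathway lists were the 3 of smallest p per list. Coordinates are mm10 (GENCODE M21), sequences RefSeq GRCm38.p6.

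Deviations of same-numbered MLg libraries from their group means were positively correlated across genes (0.132, 0.157 and 0.241). Those of NIH-3T3 were not, or hardly so (-0.0007, -0.101 and 0.0269). An NIH-3T3 pair of unlike numbers, SHHN replicate 2 and control replicate 1, reached 0.138, so these values do not settle whether the numbers pair libraries. The block was therefore an alternative, beside 2 other pseudocounts, 2 filters, quantile and median-ratio scaling, 6 libraries per fit, robust variance and leaving out each library.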

Additional observations from a re-analysis of the deposited data

Results flagged for a closer look

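The SHHN effect of 8 collagen genes differed between NIH-3T3 and MLg by the test of the difference itself, against 13.4% of all genes tested and 30.8% of the 26 collagen genes. In 6 the effect was lower in NIH-3T3 than in MLg (23.1%, against 5.95% of all genes), and in 2 higher (7.69%, against 7.48%). The 6 include Col14a1, which passed the filter solely through MLg SHHN, where it is high, so its call lends no weight to that count. Likewise the 2 include Col15a1, which passed the filter solely through the NIH-3T3 libraries, where it is high, so its call lends no weight to the count of 2. The differences (NIH-3T3 minus MLg, on the log2 scale) were -3.31 for Col12a1, -2.42 for Col27a1, -1.39 for Col16a1, -1.36 for Col4a1, -1.14 for Col4a2 and -1.06 for Col14a1, and 1.15 for Col11a1 and 1.50 for Col15a1, with adjusted p-values (limma) between 2.49e-06 and 0.0182. Those of Col14a1 and Col15a1 involve values near or under the pseudocount. Groups of 3 libraries are too small for a test of single outlying libraries.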

How the results depend on the processing

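Across the 4 comparisons, 46 results on single collagen genes passed the threshold, and 33 of them passed in the same direction under all 21 alternatives that could be fitted for them; 13 were lost in at least 1, and 1 of these also changed sign. Col14a1 could not be tested without any 1 MLg SHHN library, because it then missed the filter. With no filter, 17 collagen genes were called in NIH-3T3 (11 in the reported fit), 9 of them lower, and 13 for the difference (8 reported), 10 of them lower; this setting tests more genes. Quantile normalization left 3 lower calls in NIH-3T3 (5 reported), and a pseudocount of 0.1 left 1 higher call for the difference (2 reported). Leaving out 1 library gave 9 to 12 calls in NIH-3T3, 5 to 11 in MLg (5 without MLg SHHN replicate 3; 0 to 3 lower calls, 0 when either MLg SHHN replicate 3 or MLg control replicate 1 was left out and 1 without MLg SHHN replicate 1), 7 to 10 for the difference and 15 to 19 between lines. Over all genes it gave 3006 to 4239 calls in NIH-3T3 (3885 reported), 1969 to 3261 in MLg (2818 reported) and 5368 to 6322 between lines (6205 reported). For the difference it gave 1056 to 2311 calls over all genes (1662 reported, 1056 without MLg SHHN replicate 3). Counts over all genes under the other alternatives are not given here. With the replicate block the counts were 12 in NIH-3T3, 10 in MLg, 8 for the difference and 20 between lines. Between lines the block joined same-numbered libraries of NIH-3T3 and MLg, a pairing that no label gives. In MLg the block changed the call of Col18a1 and of no other collagen gene. In NIH-3T3, where same-numbered libraries did not deviate together, with the block Col16a1 (0.0366) and Col6a1 (0.0478) passed, and Col1a1 (0.0672) and Ctsk (0.0573) did not.

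Signs of uncalled effects turned as follows. Quantile normalization gave 0.35 for Col3a1 and 0.048 for Col6a3 in NIH-3T3, 0.36 for the difference of Col3a1, and between lines 0.018 for Col14a1, -0.17 for Col1a1, -0.33 for Col1a2 and, as the called result, -0.070 for Col3a1. Median-ratio scaling gave -0.020 for Col1a1 in MLg and 0.0046 for the difference of Col7a1, which a pseudocount of 0.1 put at 0.51. Leaving out 1 library gave ranges in NIH-3T3 of -0.25 to 0.087 for Col6a3, -0.31 to 0.18 for Col18a1, -0.10 to 0.090 for Col28a1 and -0.013 to 0.14 for Col5a2, in MLg of -0.12 to 0.12 for Col1a1 and -0.13 to 0.16 for Col12a1, and for the difference of -0.11 to 0.033 for Col3a1, -0.23 to 0.022 for Col6a1, -0.22 to 0.18 for Col7a1 and -0.32 to 0.42 for Col8a1. The cause was not tested. Unknown depth leaves the counting error of low genes such as Col14a1 and Col15a1 in MLg unstated.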

Other observations

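Ratios of chains that assemble together differed with SHHN for some pairs and not for others. Col4a1 over Col4a2 was 0.921, 0.882 and 0.864 in MLg SHHN, against 0.716, 0.661 and 0.677 in MLg control, with no overlap, and 1.14, 0.950 and 0.977 in NIH-3T3 SHHN, against 0.853, 0.972 and 0.933 in NIH-3T3 control, with overlap. Col6a1 over Col6a2 was lower with SHHN in both lines without overlap, at 1.18 ± 0.0675 in NIH-3T3 SHHN and 1.46 ± 0.0989 in NIH-3T3 control, and 1.66 ± 0.0356 in MLg SHHN and 2.19 ± 0.106 in MLg control (SD, n = 3 each). Col6a3 over Col6a1 was 0.142, 0.137 and 0.133 in MLg SHHN, against 0.360, 0.192 and 0.285 in MLg control, with no overlap. In NIH-3T3 it was 0.185, 0.302 and 0.213 with SHHN, against 0.322, 0.274 and 0.355 in control, with overlap. Type I collagen holds more of the Col1a1 product than of the Col1a2 product, and Col1a1 over Col1a2 was 1.30 ± 0.191 in NIH-3T3 SHHN and 1.09 ± 0.190 in NIH-3T3 control, and 1.18 ± 0.0800 in MLg SHHN and 0.970 ± 0.103 in MLg control, overlapping in NIH-3T3 and not in MLg. Col5a1 over Col5a2 overlapped in both lines, at 0.832 ± 0.0531 in NIH-3T3 SHHN and 0.807 ± 0.146 in NIH-3T3 control, and 0.771 ± 0.0323 in MLg SHHN and 0.752 ± 0.0914 in MLg control. Col4a5 over Col4a6 also overlapped, at 2.48 ± 0.131 in NIH-3T3 SHHN and 2.38 ± 0.308 in NIH-3T3 control, and 11.1 ± 1.27 in MLg SHHN and 10.03 ± 0.830 in MLg control. FPKM ratios depend on the transcript models used, so they are compared between groups and not with the makeup of the protein.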
